A study of Ulva lactuca with 4 samples.

Results

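Among the transcripts already read in submerged thalli of Ulva lactuca, 131 assembled contigs were far more abundant in each of 3 libraries from desiccated thalli. The assembly held 105451 contigs. Ulva lactuca is a green seaweed with thin, leaf-like thalli that grows between the tide marks, and a contig is a transcript sequence put together from reads without a genome. The contigs were chosen by their measured read counts: at least 50 scaled counts in the submerged control, and a ratio to the control of at least 8 after 24 h, after 36 h and after 72 h of desiccation. A scaled count is the read count of a library divided by its size factor, and 1 was added to both scaled counts before the ratio was taken. Of the 38049 contigs with the control minimum, 426 (1.12%) reached a ratio of 8 at 24 h, 313 (0.823%) at 36 h and 740 (1.94%) at 72 h. The 131 contigs that did so at all durations made up 0.344% of them. Since these values chose the contigs, their levels over the control are a description and carry no test.

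RNA was sequenced from 4 libraries, 1 per condition. One library came from thalli that were always submerged (the control), and the others came from thalli held at 20% moisture for 24 h, 36 h or 72 h. All were thalli acclimatised to the laboratory, and the labels give neither the number of thalli in a library nor, in words, the time at which the control was taken. The control's title begins with 24_6, where the other titles begin with 24_0, 36_0 and 72_0, and no label explains the numbers. Per the series' design text, these are libraries of a previous series counted anew on a different assembly. The libraries held between 52643595 and 74243310 reads counted on contigs. Reads fell on 81547 contigs in the control, 87832 at 24 h, 87806 at 36 h and 98649 at 72 h. The 72 h library thus had reads on the most contigs, with a total of 53279365 reads. The cause was not tested. With no replicates, every difference below is one between libraries, with no spread between thalli to set it against. All 95% intervals below are exact and cover counting error only, and reads without molecular identifiers are not independent molecules.

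Intertidal green algae lose most of their water when the tide is out and take it up again within a short time of being covered. Water loss concentrates the cell contents, slows photosynthesis and favours the formation of reactive oxygen species. Protective proteins, antioxidant enzymes and compatible solutes are known to be part of the response in many algae and plants. A transcript present in water and more abundant when dry is one with a base level in submerged thalli, unlike one that is read under desiccation alone. The tables used here pair no contig with a gene name, protein or sequence, so the contigs carry assembly identifiers, have no stated function, and could not be set against marker genes of the tissue or of other organisms. In an identifier such as c27177_g9_i1, contigs with the same c and g numbers form 1 cluster of the assembly, and a gene can be spread over the contigs of a cluster.

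The 131 contigs lay in 55 clusters. Their median scaled count was 111 in the control (range 52.0 to 2500), 1953 at 24 h (548 to 120968), 1829 at 36 h (518 to 71192) and 1949 at 72 h (458 to 37177). The highest control level thus lay above the median of each desiccated library, while every contig stood above its own control by the rule. Set against the control, the median ratios were 15.9 (24 h), 12.8 (36 h) and 15.4 (72 h), against 0.922, 0.894 and 0.893 over all contigs with the control minimum. The highest ratios were 281 at 24 h, 200.1 at 36 h and 195 at 72 h. Together the contigs took 0.0634% of the control reads (95% interval 0.0627% to 0.0641%). Their share was 1.502% at 24 h (1.499% to 1.505%), 1.168% at 36 h (1.165% to 1.170%) and 1.162% at 72 h (1.159% to 1.165%). In RNA from thalli, a higher level per cell and more cells that express a transcript cannot be told apart, and a share of reads moves with every other transcript in the library.

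**Figure D1:**
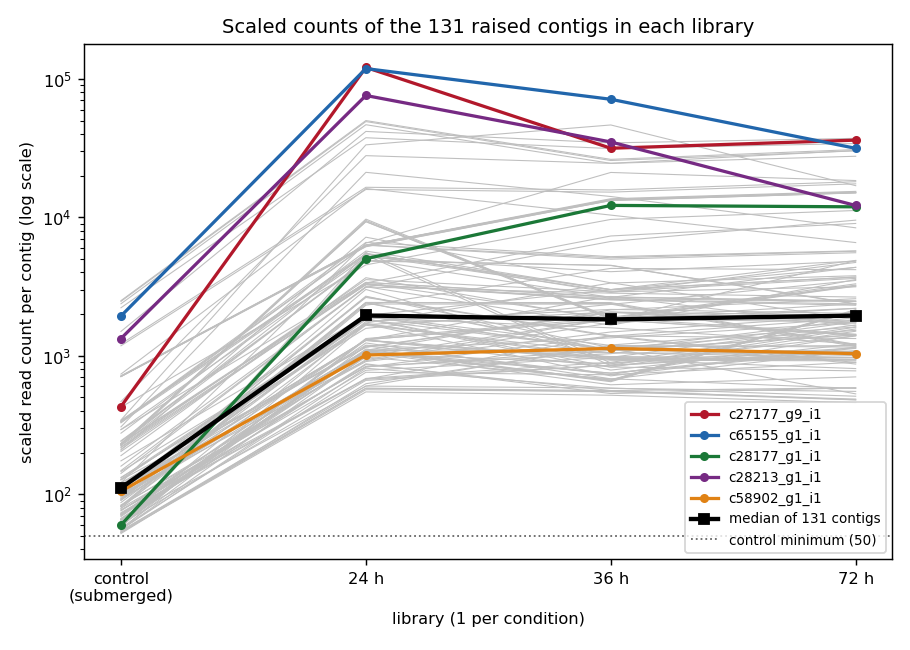
Scaled read counts (log scale) of the 131 contigs in the control and after 24 h, 36 h and 72 h, 1 line per contig, with 5 named contigs in colour and the median in black. The median stands at 111 in the control and between 1829 and 1953 in the desiccated libraries, and no line falls below 458 at any duration.

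The range of the response was wide at its upper end and dense at its lower end. At 24 h, 68 of the 131 contigs had ratios between 8 and 16, 48 between 16 and 32, and 15 of 32 or more. At 36 h the numbers were 86, 34 and 11, and at 72 h they were 70, 50 and 11. The smallest of a contig's 3 ratios had a median of 10.01 and was under 9 in 41 contigs. It reached 16 in 16 contigs and 32 in 5. The lower bound of the 95% interval was at least 8 at all durations in 74 of the 131, and at least 4 in all 131.

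At the threshold, contigs with nearly the same values fell inside and outside the set. Just inside the ratio were c28120_g1_i5, with a smallest ratio of 8.03, and c27787_g2_i6, with 8.06. Just outside were c26795_g1_i4, with 7.98 at 36 h, and c22576_g1_i3, with 7.95 at 72 h. Just inside the control minimum were c23375_g1_i1 and c25273_g1_i3, with 46 and 47 reads in the control. Just outside it were c27735_g2_i7 and c43410_g1_i1, with 43 reads each and smallest ratios of 14.6 and 67.9.

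Contigs with few control reads were more often among the 131. With 50 to 100 scaled counts in the control, 59 of 4702 contigs were members, and with 100 to 200, 26 of 5211. With 200 to 1000 the number was 37 of 15896, and with 1000 or more it was 9 of 12240, in 5 clusters. The median ratios in the highest of these bands were 19.9 at 24 h, 12.9 at 36 h and 14.8 at 72 h, against 14.5, 12.2 and 16.5 in the lowest. All 3 ratios of a contig share its 1 control count, so an error in that count moves them together. How far this contributes to the lowest band was not tested.

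The 2 contigs with the strongest rise by the smallest lower bound of their intervals were c27177_g9_i1 and c28177_g1_i1. The contig c27177_g9_i1 had 380 reads in the control, 136190 at 24 h, 36131 at 36 h and 32119 at 72 h. Its ratios to the control, here without the added 1, were 282 at 24 h (254.7 to 312), 73.4 at 36 h (66.4 to 81.4) and 84.0 at 72 h (75.9 to 93.2). It was alone in its cluster and stood highest at 24 h, with both later libraries far below that level. The contig c28177_g1_i1 had 53 reads in the control, 5655 at 24 h, 13965 at 36 h and 10593 at 72 h. Its ratios were 83.8 (64.01 to 112), 203 (155 to 272) and 199 (152 to 265), so that its lowest desiccated library was 24 h. The other 3 contigs that kept a smallest ratio of 32 or more were picked out after their values were seen. They were c28177_g1_i2, from the same cluster as c28177_g1_i1, with 107, 7336, 24159 and 16400 reads in the control and at 24 h, 36 h and 72 h, as well as c42772_g1_i1 and c23231_g1_i1. The contig c42772_g1_i1 had 413 reads in the control, 31388 at 24 h, 28113 at 36 h and 27050 at 72 h. Its scaled counts at the 3 durations were 27880, 24536 and 30393, nearly level and highest at 72 h. The contig c23231_g1_i1 had 304 reads in the control, 37565 at 24 h, 53218 at 36 h and 15060 at 72 h, and was highest at 36 h.

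By the mean share of reads over the 3 desiccated libraries, the first contigs were c65155_g1_i1 and, again, c27177_g9_i1. They were not the first in every library: c28151_g1_i5 had most reads in the control (2212) and c19202_g1_i2 at 72 h (33088), both named after their values were seen. The contig c65155_g1_i1 had 1713 reads in the control, 133559 at 24 h, 81572 at 36 h and 28026 at 72 h. Its ratios were 61.3 at 24 h (58.4 to 64.3), 36.8 at 36 h (35.05 to 38.6) and 16.3 at 72 h (15.5 to 17.1), a decline over the 3 durations with intervals that do not overlap. Both contigs together held 6.27% of the reads of the 131 contigs in the control, 24.2% at 24 h, 14.2% at 36 h and 9.71% at 72 h. The 10 contigs with the largest mean share over the desiccated libraries, a choice that itself uses those libraries, held 41.3% of them in the control, 60.8% at 24 h, 48.5% at 36 h and 41.3% at 72 h. The number of reads on a contig also depends on its length, which the tables used here do not give, so this order is one of reads and not of transcript levels.

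Contigs of a cluster cannot be taken as independent, so the 131 contigs do not stand for 131 separate units. The 55 clusters are the coarser unit used here, and whether a cluster holds 1 gene or several was not tested. In 26 of the 55 clusters 1 contig was a member, and the other 29 clusters held 105 members. Of the clusters, 15 consisted of 1 contig and 16 of several contigs that were all members. Most members of a cluster had nearly the same profile over the desiccated libraries. Within each of the 29 clusters, the largest deviation of a member from the cluster's median profile was 0.03 on the log2 scale in the median cluster and 0.77 in the most varied one, and it was under 0.5 in 27 of the 29. In 13 of the 29, which hold 42 members, the members' read counts were within 1.2-fold of each other in every library. The 4 members of c21489_g1, singled out after their values were seen, had 198 to 206 reads in the control, 10463 to 10920 at 24 h, 2096 to 2168 at 36 h and 2830 to 2944 at 72 h. The sources used here do not give how a read that matches several contigs was counted. Whether near-equal counts hold the same reads was not tested.

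The 2 clusters with most members were c25562_g1 and c27314_g1. All 9 contigs of c25562_g1 were members. Their ratios to the control ran from 8.62 to 14.8 at 24 h, from 18.6 to 27.4 at 36 h and from 21.1 to 30.7 at 72 h, so that each contig stood lowest at 24 h. Summed, they had 4465 reads in the control, 52067 at 24 h, 113556 at 36 h and 100417 at 72 h. In scaled counts the sums were 46248 at 24 h, 99106 at 36 h and 112828 at 72 h, so that 72 h was highest. In c27314_g1, 6 of 7 contigs were members, and each stood highest at 24 h. Their ratios ran from 12.8 to 15.0 at 24 h, from 8.29 to 8.99 at 36 h and from 8.10 to 8.80 at 72 h. Their summed reads were 606 in the control, 11294 at 24 h, 6842 at 36 h and 5215 at 72 h.

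**Figure D2:**
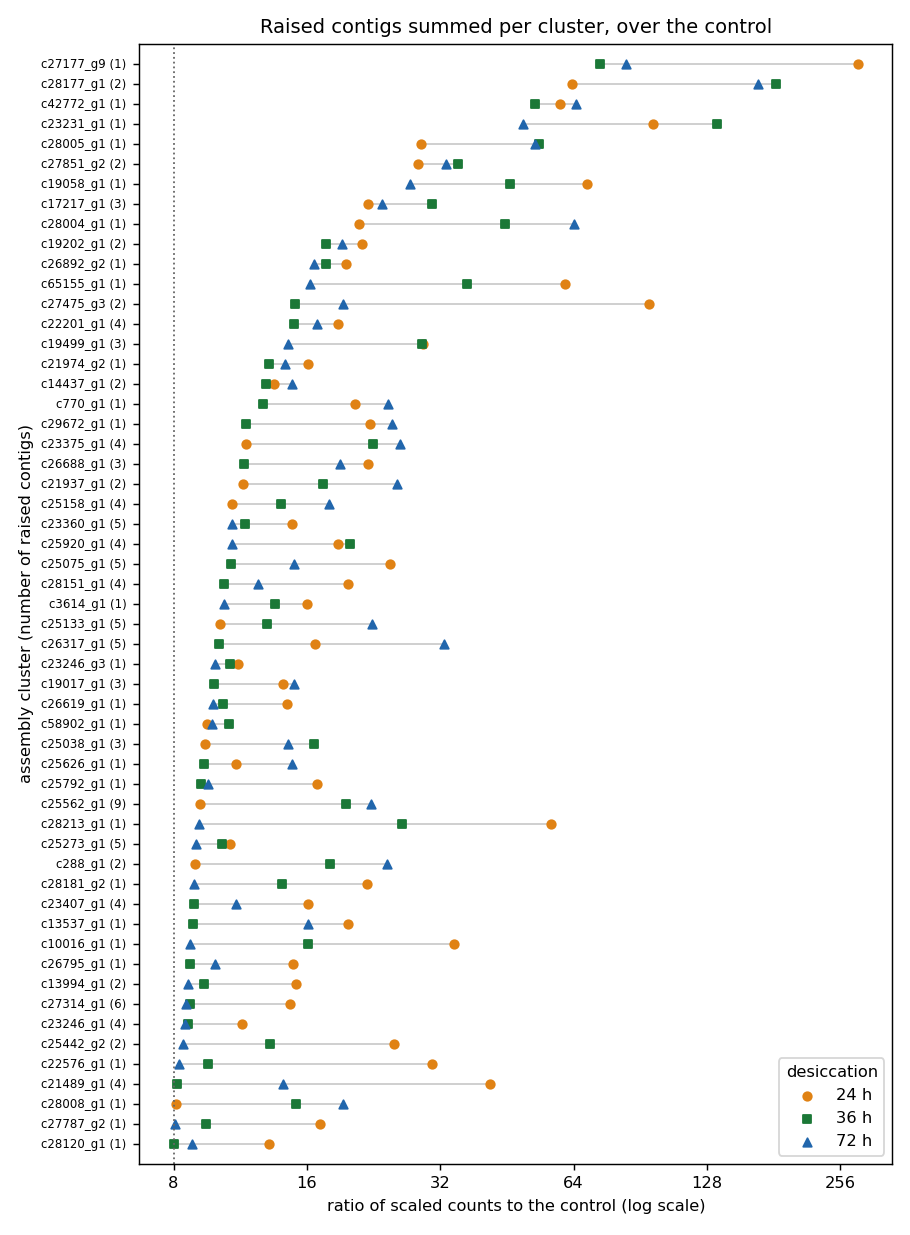
Ratio of scaled counts to the control (log scale) at 24 h, 36 h and 72 h for the members summed in each of the 55 clusters, with the number of members in parentheses and the threshold of 8 as a dotted line. Clusters are ordered by their smallest ratio, from c28120_g1 at 8.03 to c27177_g9 at 73.2, and the duration with the highest ratio differs between clusters.

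Summing all contigs of a cluster, members or not, left 43 of the 55 clusters above a ratio of 8 at all durations. Over the assembly, 63 of 12111 clusters with the control minimum met the rule on summed counts (0.520%), of which 20 held no member contig. In the remaining 12 of the 55 clusters the contigs outside the set drew the sum below a ratio of 8 at 1 or more durations. The lowest cluster ratios were 1.41 at 24 h, 0.842 at 36 h and 0.902 at 72 h, in c25792_g1, a cluster of 11 contigs with 1 member.

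The ratios between desiccated libraries were not used to choose the contigs, although the same libraries were, and a contig near a ratio of 8 at 1 duration could not be much lower at another. Differences of 2-fold or more between 36 h and 24 h were found in 13 contigs (9.92% of the 131) that were higher at 36 h and in 17 (13.0%) that were lower. Over all contigs with the control minimum the shares were 12.0% and 11.9%. From 36 h to 72 h, 7 (5.34%) were higher at 72 h and 7 lower, against 11.9% and 7.26% of all contigs. From 24 h to 72 h, 26 (19.8%) were higher at 72 h and 21 (16.03%) lower, against 16.3% and 15.2%. All 3 desiccated libraries lay within 2-fold of each other in 69 of the 131 (52.7%), against 56.5% of all contigs. The largest departure from all contigs was among those higher at 72 h than at 36 h, where the share of the 131 was the smaller one, and the other shares of the steps were near those of all contigs. These counts take contigs of a cluster separately. Among the 13 were most of the 9 members of c25562_g1, and among the 7 higher at 72 h than at 36 h were all 5 of c26317_g1. With members summed per cluster, 4 of 55 clusters were higher and 8 lower at 36 h than at 24 h. From 36 h to 72 h, 2 were higher and 4 lower. The 24 h to 72 h balance turned when members were summed per cluster, with 8 clusters higher and 12 lower at 72 h. It also moved with the scaling, to 24 higher and 12 lower among the 119 contigs that met the rule with library totals, and it turned to 19 higher and 22 lower among the 116 that did so with the upper quartile. For 36 h to 72 h, library totals gave 7 higher and 4 lower, and the upper quartile gave 6 higher and 10 lower.

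With differences of any size counted, the contigs leaned toward 24 h. The 24 h library was the highest of the desiccated libraries in 73 of the 131 contigs (55.7%), against 38.5% of all contigs with the control minimum. The 36 h library was highest in 16 (12.2%, against 29.3%) and the 72 h library in 42 (32.1%, against 32.3%). By clusters, with the members of each summed, the numbers were 32 of 55 for 24 h, 8 for 36 h and 15 for 72 h. With the upper quartile as scaling, of 116 contigs 58 were highest at 24 h, 30 at 36 h and 28 at 72 h. With library totals, of 119 contigs 56 were highest at 24 h, 24 at 36 h and 39 at 72 h. The shares of all contigs were not counted under these scalings. Scaled counts were lower at 36 h than at 24 h in 89 of the 131, with a median ratio of 0.792, against 0.971 over all contigs. With the upper quartile, 66 of 116 contigs were lower at 36 h, and with library totals 72 of 119. Over all contigs with the control minimum, the median log2 ratio of 36 h over 24 h was -0.042. It was -0.006 with the upper quartile and 0.045 with library totals. The most frequent order from low to high was 72 h, 36 h, 24 h, in 39 contigs (29.8%), which was also the most frequent over all contigs (24.99%). The order 36 h, 72 h, 24 h followed in 34 (26.0%, against 13.4%) and 24 h, 36 h, 72 h in 26 (19.8%, against 18.5%). With 1 library per duration these orders were not tested.

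**Figure D3:**
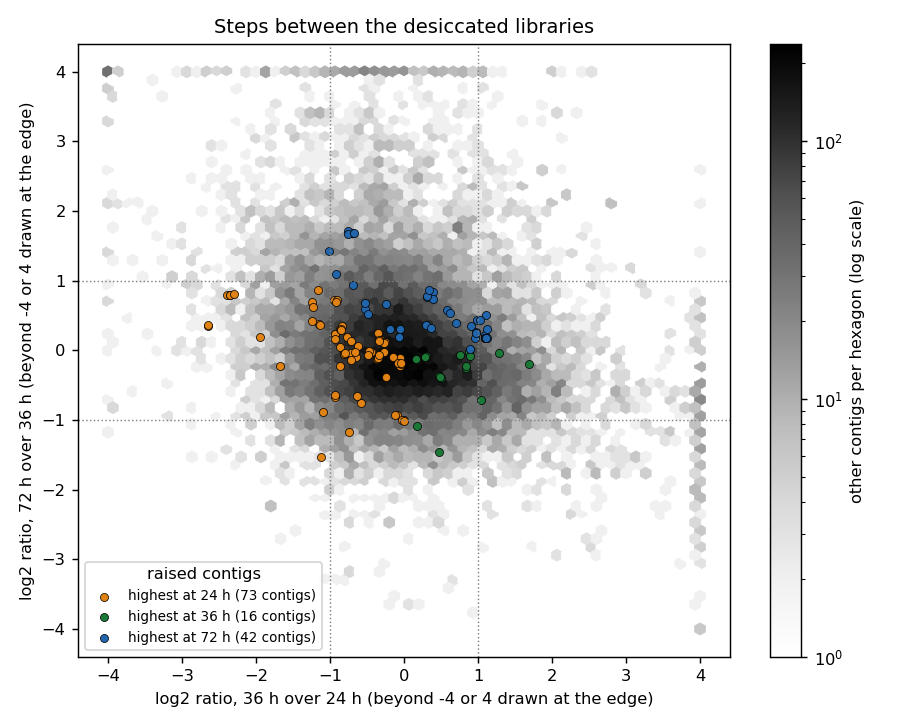
Log2 ratio of 36 h over 24 h (horizontal) and of 72 h over 36 h (vertical) for the 131 contigs, coloured by their highest desiccated library, over all other contigs with the control minimum in grey. Dotted lines mark 2-fold, values beyond the axes are drawn at their edge, and of the 131 contigs 73 are highest at 24 h, 16 at 36 h and 42 at 72 h.

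Some contigs gave up much of their rise after 24 h. The contig c27475_g3_i5 had 50 reads in the control, 6018 at 24 h, 972 at 36 h and 961 at 72 h, and its cluster partner c27475_g3_i2 had 51, 6279, 1016 and 1014. For both, the ratio of 36 h over 24 h was 0.159, with intervals of 0.148 to 0.170 and 0.149 to 0.170. They remained 15.0 and 15.4 times the control at 36 h, and their ratios of 72 h over 36 h were 1.27 and 1.28. The contig c28213_g1_i1 declined at both steps, with 1178 reads in the control, 85359 at 24 h, 40109 at 36 h and 10830 at 72 h. Its ratio of 72 h over 24 h was 0.160 (0.157 to 0.164), and that of 72 h over 36 h was 0.348 (0.340 to 0.355), the lowest among the 131. Next was c23231_g1_i1, described above, with 72 h over 36 h at 0.364 (0.358 to 0.371).

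Other contigs were highest at 36 h or 72 h. The contig c28177_g1_i2 had the highest ratio of 36 h over 24 h, at 3.24 (3.15 to 3.32), followed by c28177_g1_i1 at 2.43 (2.35 to 2.50). Neither rose further, with 72 h over 36 h at 0.874 (0.857 to 0.891) and 0.977 (0.952 to 1.002). The contig c28004_g1_i8 had 131 reads in the control, 3511 at 24 h, 7669 at 36 h and 8488 at 72 h. Its ratio of 72 h over 24 h was 3.06 (2.94 to 3.18), the highest of the 131, and its ratio to the control reached 64.4 at 72 h. The contigs c26317_g1_i1 and c26317_g1_i6 dipped at 36 h and were highest at 72 h. The first had 55 reads in the control, 1236 at 24 h, 744 at 36 h and 1893 at 72 h, and the second 61, 1205, 766 and 1915. Their ratios of 72 h over 36 h were 3.28 (3.01 to 3.57) and 3.22 (2.96 to 3.50).

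The steadiest contigs were c58902_g1_i1 and c23246_g3_i1. The contig c58902_g1_i1 had 93 reads in the control, 1139 at 24 h, 1295 at 36 h and 922 at 72 h, with ratios to the control of 9.62, 10.75 and 9.85. The contig c23246_g3_i1 had 86 reads in the control, 1233 at 24 h, 1205 at 36 h and 866 at 72 h, with ratios of 11.3, 10.8 and 10.01. For both, the intervals of the 3 ratios to the control overlapped, but these ratios share 1 control count. Taken directly, c58902_g1_i1 had 36 h over 24 h at 1.12 (1.03 to 1.21) and 72 h over 36 h at 0.917 (0.841 to 0.998). For c23246_g3_i1, 72 h over 24 h was 0.888 (0.814 to 0.970). These intervals exclude 1, while those of the remaining pairs of desiccated libraries include it.

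Contigs that shared a cluster with a member but were not members had been left out by the rule, so none of them could pass it at all 3 durations. There were 137 such partners in 24 clusters, of which 92, in 15 clusters, had the control minimum. At 24 h, 19 of the 92 (20.7%) were at least 8-fold above the control, against 0.778% of all non-members with the minimum. The numbers were 12 (13.0%) against 0.480% at 36 h and 13 (14.1%) against 1.61% at 72 h. At least 4-fold at all durations were 30 of the 92 (32.6%), against 1.03% of non-members. The partners had median ratios of 1.89 (24 h), 2.06 (36 h) and 1.92 (72 h), against 0.919, 0.891 and 0.890. The cluster c27851_g2, left out after its values were seen, held 26 of the 92, with 0 above 8-fold. Without it the medians were 3.94, 2.61 and 3.60. The partners above 8-fold lay in few clusters. Of the 19 at 24 h, c22576_g1, c25626_g1 and c26795_g1 held 4 each and c27787_g2 held 2. Partners can have nearly the counts of the member: those in c22576_g1 had 86 to 95 control reads, against 86 in the member. Partners come from the members' own clusters, so they are not independent of them.

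**Figure D4:**
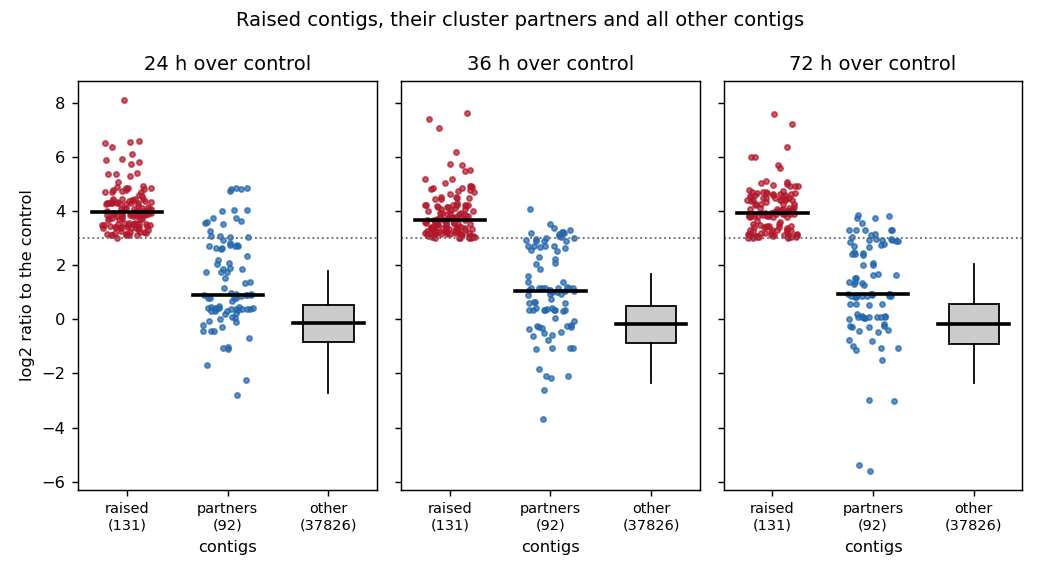
Log2 ratio to the control at 24 h, 36 h and 72 h of the 131 contigs (each point 1 contig, bar at the median), of their 92 cluster partners with the control minimum, and of all other contigs with it (box, quartiles; whiskers, 5th and 95th percentiles). The dotted line marks 8-fold. Partner medians correspond to ratios of 1.89, 2.06 and 1.92, between those of the members and the other contigs.

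In a few clusters, chosen here after their values were seen, members differed from the partners with the control minimum. In c27851_g2, a cluster of 33 contigs, 2 were members. The contig c27851_g2_i13 had 57 reads in the control, 1990 at 24 h, 2476 at 36 h and 1800 at 72 h. The contig c27851_g2_i22 had 49, 1891, 2370 and 1749. The 26 partners with the control minimum had median ratios of 1.32, 1.27 and 1.08, and the whole cluster stood at 1.53, 1.59 and 1.67 times the control. In c28004_g1, whose member c28004_g1_i8 rose through 72 h, the 6 partners with the minimum had median ratios of 0.489 at 24 h, 0.258 at 36 h and 0.126 at 72 h. The whole cluster of 13 contigs, those under the minimum included, had 2692 reads in the control, 23610 at 24 h, 48824 at 36 h and 52909 at 72 h, and stood at 6.89, 14.0 and 19.5 times the control. The partner c28004_g1_i13 had 819 reads in the control, 503 at 24 h, 236 at 36 h and 16 at 72 h. The partner c28004_g1_i2 went against the others, with 53 reads in the control, 71 at 24 h, 148 at 36 h and 133 at 72 h. Its ratios to the control were 1.05, 2.14 and 2.47.

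The authors' deposited tables hold a status per contig, with a p-value that is raw and one that is adjusted, each from 1 library against 1. The tables against the control repeat the contrasts that chose the contigs and are no support for them. In the authors' deposited tables, 131 of the 131 were higher by status at 24 h (1.95% of contigs with the control minimum), 131 at 36 h (2.09%) and 119 at 72 h (2.18%). The 12 without a call at 72 h, per the authors' deposited table, had between 47 and 86 control reads, and 5 of them belonged to c25273_g1. An adjusted p-value under 0.05 in the authors' deposited tables was held by 5 of the 131 at 24 h (0.604% of contigs), 21 at 36 h (0.363%) and 7 at 72 h (0.279%). The shares of contigs by status count only those higher than the control, while those by adjusted p-value count both directions. The 5 at 24 h were c27475_g3_i2, c27475_g3_i5, c28177_g1_i1, c28177_g1_i2 and c19058_g1_i1, named after their values were seen. The lowest value in the authors' deposited tables belonged to c28177_g1_i1 at 36 h (5.71e-05) and at 72 h (0.00198), and to c27475_g3_i2 at 24 h (0.00669). The median adjusted p-value of the 131 in the authors' deposited tables was 0.304 (24 h), 0.339 (36 h) and 0.484 (72 h).

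The authors' deposited tables between desiccated libraries are other contrasts. For 72 h over 24 h, they gave 2 of the 131 as lower at 72 h and 0 as higher, against 1.21% and 2.84% of contigs with the control minimum. These 2 were c27475_g3_i2 and c27475_g3_i5. For 72 h over 36 h, the authors' deposited table gave 5 as higher at 72 h and 0 as lower, against 2.98% and 0.647%. All 5 were the members of 1 cluster, c26317_g1, namely c26317_g1_i1, c26317_g1_i2, c26317_g1_i3, c26317_g1_i5 and c26317_g1_i6. None of the 131 had an adjusted p-value under 0.05 in the authors' deposited tables for 72 h over 24 h (0.460% of contigs) or for 72 h over 36 h (0.817%), where the lowest were 0.964 and 1. The shares of contigs by adjusted p-value again count both directions. The spread behind such p-values was not measured by replicates.

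The 131 raised contigs (0.344%) lay in 55 clusters. With the same control minimum, 338 contigs (0.888%) in 259 clusters were at least 8-fold lower than the control at each duration. The difference in clustering between the sets was not tested.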

How the data were processed

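Reads of 4 libraries were counted on the contigs of an assembly by the submitters. Of tools, the submitters' processing notes list cutadapt, Bowtie2 and DESeq, without versions or settings, and no source used here names the assembler. The authors deposited 5 tables, each for a pair of libraries, with raw read counts per contig. Beside them stand values the authors scaled by a size factor (a signal on the scale of counts, per the file headers), which were not used for results. The fold change, deposited by the authors as a linear ratio, and their deposited p-value, adjusted p-value and status are quoted only as theirs. The 6 count columns repeated between tables were identical in 6 of 6 cases, and no column of per-sample values was left unused for lack of a label.

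Each library's counts were divided by its median-of-ratios size factor, taken over the 70998 contigs read in all 4 libraries (control 0.885, 24 h 1.13, 36 h 1.15, 72 h 0.89). Ratios used a pseudocount of 1, a control minimum of 50 scaled counts and a threshold of 8. Intervals of the ratio of 2 counts, and of shares, are exact Clopper-Pearson 95% intervals. With 1 library per group no model was fitted and no p-value was computed. The threshold rule was checked on simulated counts with known changes. These counts held counting error only, so the check covers the calculation and not the spread between libraries. Named contigs were taken by rank: the highest smallest lower bound of the ratio, the largest mean share of reads over the desiccated libraries, the extremes of each pair of desiccated libraries by the interval bound nearest to 1, the smallest range over the durations, the threshold neighbours, and the clusters with most members. The rule, the lists and the comparisons were chosen with earlier results of these data known. Alternatives changed the scaling, pseudocount, control minimum, thresholds, durations and unit (contig or cluster). Calculations used Python 3.11.15, numpy 2.4.6, pandas 2.3.3, scipy 1.17.1 and matplotlib 3.10.9, and edgeR 4.0.16 for TMM factors alone.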

Additional observations from a re-analysis of the deposited data

How the results depend on the processing

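No paired analysis was possible because each group holds 1 library. The number of contigs meeting the rule stayed within 1.5 times 131 under each scaling and pseudocount tried, from 116 with the upper quartile, 108 of them among the 131, to 133 with TMM. It was 227 with a control minimum of 20, 46 with 200 and 1247 with none. It was 523 at a ratio of 4, 16 at a ratio of 16 and 207 when 24 h was not asked for. Clusters meeting the rule on summed counts numbered 55 to 63 over the scalings. The upper quartile moved the median log2 ratio of all contigs with the control minimum for 72 h over 36 h to -0.35, against -0.07.

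At 1.5-fold, 26 contigs were higher and 50 lower at 36 h than at 24 h, 26 and 15 at 72 h than at 36 h, and 37 and 40 at 72 h than at 24 h. At 4-fold these were 0 and 6, 0 and 0, and 0 and 3. Members of the clusters c21489_g1 and c27475_g3 were among the 6. The shares of all contigs at 1.5-fold and 4-fold, and those of all clusters, were not counted, so these counts have no baseline. Summed per cluster, 4 were higher and 8 lower from 24 h to 36 h, 2 and 4 from 36 h to 72 h, and 8 and 12 from 24 h to 72 h, while 39, 26 and 34 of 55 were lower at any size in the same steps (there are fewer clusters than contigs). With library totals, 4 contigs were lower from 36 h to 72 h and 12 from 24 h to 72 h. The 36 h library was highest in 30 contigs with the upper quartile, and by clusters the numbers in order of duration were 32, 8 and 15, or 33, 7 and 15 for the member with most reads of each. The alternatives on the highest library, on differences of any size and on partners without c27851_g2 were chosen after seeing the data, and the last left the counts of partners at 19, 12 and 13.

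Partners at least 8-fold higher in order of duration numbered 43, 34 and 36 with a control minimum of 20, and 57, 44 and 47 with none. In the authors' deposited tables, an adjusted p-value under 0.05 in place of the status left 5, 21 and 7 contigs over the control. With 0.1 as the cutoff, the authors' deposited values left 20, 34 and 8, and both cutoffs left 0 between desiccated libraries. The share of the whole set with the control minimum was not counted at 0.1, so 20, 34 and 8 have no baseline. The cause of these shifts was not tested.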

Other observations

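Partners under the control minimum were left out above. There were 45, of which 30 exceeded the control 8-fold or more at all durations and 1 had no read in the control. Their median ratios were 23.2 at 24 h, 18.6 at 36 h and 24.2 at 72 h, on few control reads. In c26892_g2, with 1 member among 5 contigs, the whole cluster had 206 reads in the control, 16478 at 24 h, 16004 at 36 h and 11637 at 72 h, and the member c26892_g2_i5 had 141, 3532, 3246 and 2363.

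Beside the 131, 552 contigs in 244 clusters exceeded the control 8-fold or more at each duration with at least 50 scaled counts there, but with fewer than 50 in the control. The 24 h library was the highest of the desiccated ones in 317 of these (57.4%), the 36 h library in 111 (20.1%) and the 72 h library in 124 (22.5%). From 36 h to 72 h, 78 (14.1%) were at least 2-fold higher at 72 h and 25 (4.53%) lower. Among the 131 these were 7 each. The difference between the sets was not tested.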
